A study of Mus musculus with 6 samples.

Results

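Retinoic acid binding proteins and receptors were examined in the cortex of mouse embryos with and without the histone deacetylases HDAC1 and HDAC2. In all, 9 symbols were listed by name, of which 4 have a row in the deposited table of 12041 symbols: Crabp2, Rara, Rarg and Rxra. The other 5 (Crabp1, Rarb, Rxrb, Dhrs3 and Cyp26b1) are not analysed here. The list was chosen by symbol around Crabp2, which was selected on its FPKM being high and higher in every knockout library, so its difference is given as a description with no test. The question was whether the other retinoid genes moved with it.

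RNA came from cortex of C57BL/6 embryos at embryonic day 12.5, in 3 libraries of embryos in which Hdac1 and Hdac2 were deleted conditionally (cKO) and 3 libraries of wild-type embryos (WT). The labels name no recombinase, target cells, deleted exons, litters or batches. They also do not tell whether each library is another embryo, and the p-values therefore reflect library-to-library spread that may be technical. The design text of the series speaks of forebrain where the sample labels say cortex. Columns of the table are named HM-5, HM-13 and HM-16, read as cKO, and HC-1, HC-8 and HC-10, read as WT, from the letters M and C alone; which column is which numbered replicate is not given.

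Retinoic acid is made from vitamin A in a few tissues, among them the meninges that cover the cortex, and acts on neighbouring cells. In the cell, CRABP2 carries it to the nucleus, where retinoic acid receptors (RARA, RARB, RARG) bound to DNA as pairs with retinoid X receptors (RXRA, RXRB, RXRG) switch from repression to activation. Without ligand, these pairs recruit corepressors such as NCOR1 together with histone deacetylases. CYP26 enzymes degrade retinoic acid, and DHRS3 returns retinaldehyde to retinol.

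Among the receptors, the rows of Rxra and Rarg begin at, or for the upstream Rarg row 5 bases after, starts for which a promoter sequence was at hand, and these are shown because the 2 Rarg rows differ in their start and Rxra in its level. The sequences (RefSeq, GRCm38.p6, 250 bases before to 50 after the start, in the direction of transcription) have 2 motifs in capitals, on either strand. One is the GC box, GGGCGG. The other is the receptor half-site, taken as AGGTCA or as any of its close forms, which are written AGTTCA in the first case, then GGGTCA for the next, and finally GGTTCA for the last.
Rxra, chr2:27676951-27677250, plus strand: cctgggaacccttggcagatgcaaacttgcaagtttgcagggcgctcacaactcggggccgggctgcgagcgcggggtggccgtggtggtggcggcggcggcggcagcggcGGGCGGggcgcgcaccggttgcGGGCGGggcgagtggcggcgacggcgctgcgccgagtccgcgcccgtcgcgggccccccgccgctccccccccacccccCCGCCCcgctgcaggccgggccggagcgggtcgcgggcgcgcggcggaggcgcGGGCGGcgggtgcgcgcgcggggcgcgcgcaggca
Rarg upstream start, chr15:102257473-102257772, minus strand: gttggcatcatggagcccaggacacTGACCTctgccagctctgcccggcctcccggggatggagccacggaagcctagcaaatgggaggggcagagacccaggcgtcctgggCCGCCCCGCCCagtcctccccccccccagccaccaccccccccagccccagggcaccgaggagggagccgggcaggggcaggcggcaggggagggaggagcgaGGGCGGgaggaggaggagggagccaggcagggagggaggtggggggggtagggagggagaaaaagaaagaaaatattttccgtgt
Rarg downstream start, chr15:102246451-102246750, minus strand: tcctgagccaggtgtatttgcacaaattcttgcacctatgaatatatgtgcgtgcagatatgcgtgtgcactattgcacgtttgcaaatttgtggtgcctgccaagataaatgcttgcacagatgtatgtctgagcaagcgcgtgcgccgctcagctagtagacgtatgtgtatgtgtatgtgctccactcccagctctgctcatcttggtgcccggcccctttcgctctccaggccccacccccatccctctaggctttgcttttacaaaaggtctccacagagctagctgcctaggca
The Rxra window is 83.0% G and C with 55 CpG dinucleotides, against a median of 52.7% and 7 over 32851 RefSeq promoters of the same length, and it holds 4 GC boxes and 0 half-sites. The upstream Rarg window is 70.0% G and C with 12 CpG, 3 GC boxes, 2 of which overlap by a base, and 1 half-site. The downstream Rarg window is 51.7% G and C with 10 CpG and holds neither motif. A GC box is found in 35.7% of all promoters and a half-site in 43.7%. Direct repeats of the half-site with a spacer of N, NN or NNNNN, the arrangement that receptor pairs bind, occur in 0.588% of all promoters and in 0 of these 3 windows. The RefSeq windows of Rara begin at other starts than its row. A second RefSeq window of Rxra, chr2:27709042-27709341, also belongs to another start than its row and is not shown. It holds 3 half-sites, 0 GC boxes and 0 direct repeats.

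Crabp2 was higher in the cKO libraries. The gene lies on chromosome 3 from 87948666 to 87953376 (GRCm38, GENCODE M21, plus strand), and its row is the 4-exon coding transcript ENSMUST00000005019. It had 616, 566 and 609 FPKM (fragments scaled for length and depth, as deposited) in cKO (HM-5, HM-13 and HM-16), against 261, 277 and 252 FPKM in WT (HC-1, HC-8 and HC-10). The groups did not overlap, and the lowest cKO value was 2.04 times the highest WT value. The means were 597 ± 27.1 FPKM in cKO and 264 ± 12.6 FPKM in WT (SD, n = 3 each), a ratio of 2.26, over 4385 to 6265 reads per cKO library and 2420 to 3180 per WT library. The coefficient of variation was 4.54% in cKO and 4.78% in WT.

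**Figure D1:**
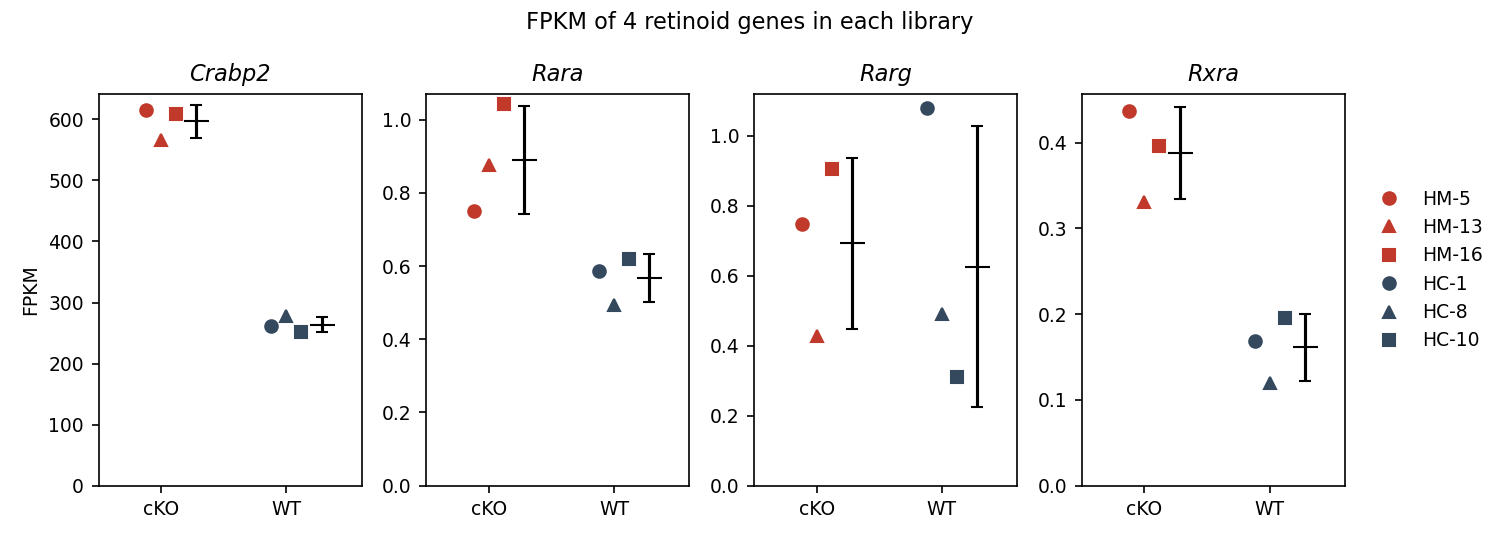
FPKM (vertical axes, each from 0) of Crabp2, Rara, Rarg and Rxra in the 3 cKO and 3 WT libraries; each symbol is a library, and black bars are mean ± SD. The groups are apart for Crabp2, Rara and Rxra and overlap for Rarg, and the scale of Crabp2 is far above that of the receptors.

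By mean FPKM, Crabp2 ranked 95 in cKO and 282 in WT among 12041 symbols. A level of 100 FPKM in WT was reached by 807 genes, and 6 of them had a cKO mean at least 2 times the WT mean (limits chosen after the values were seen), Crabp2 among them as its choice implies. The other 5 were Rn45s (ribosomal RNA), Mir6236, Lars2, AK140265 and AK155692, whose groups overlapped: without HM-13 their ratios of cKO to WT were 0.546 to 0.769, and that of Crabp2 was 2.32. HM-13 had 29.7% of its reads in Rn45s, against 0.506% to 2.48% in the other 5 libraries. In RPM (reads scaled to the total of the whole table), which includes those reads, Crabp2 had 625, 382 and 595 in HM-5, HM-13 and HM-16 and 241, 267 and 234 in HC-1, HC-8 and HC-10, still without overlap.

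**Figure D2:**
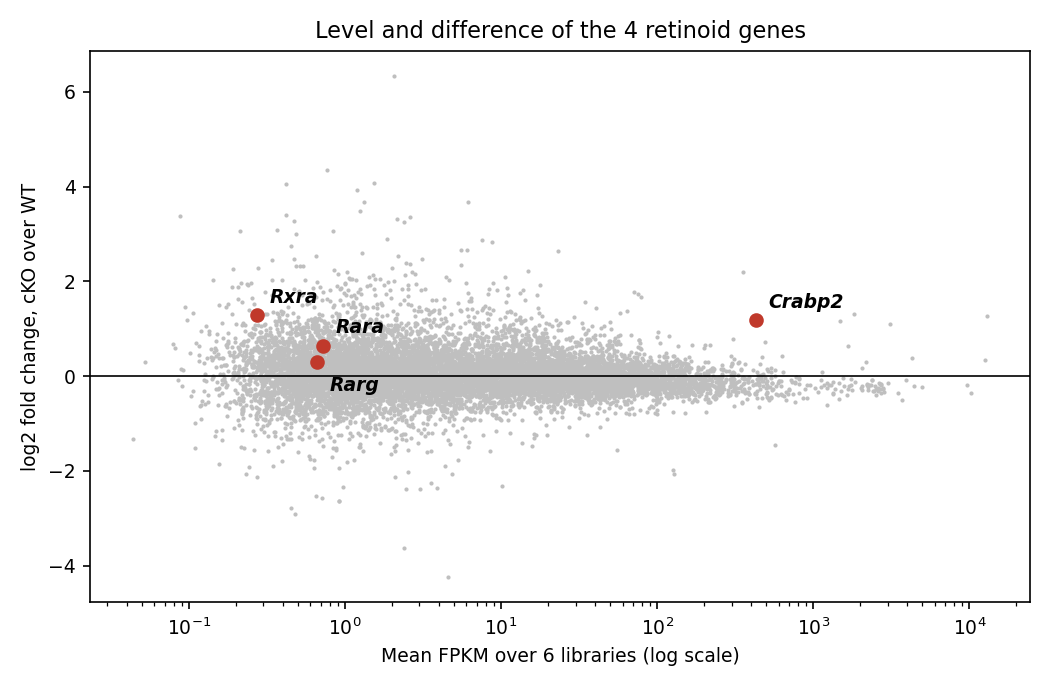
Log2 fold change, cKO over WT, from the voom fit of recovered reads (vertical) against mean FPKM over the 6 libraries (horizontal, log scale) for each gene fitted (grey), with the 4 retinoid genes in red. Crabp2 stands at the right with a log2 fold change of 1.18, and the receptors lie at the left, where genes scatter widely.

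The receptors were expressed at a small fraction of the level of Crabp2. On the FPKM scale the 6-library means ran from 0.729 for Rara through 0.66 for Rarg to 0.275 for Rxra, and the first pair did not differ beyond their spread. Since none of the 3 reached 1 FPKM in 3 libraries, none entered the main test, limma on log2(FPKM + 1) with Benjamini-Hochberg adjustment over 9359 genes. They were tested instead with limma's voom on read counts recovered from the table, over 11728 genes with at least 10 reads in at least 3 libraries. That fit was chosen after the values were seen, and each of the 3 could have passed its filter on the cKO libraries alone. In it 1 of the 3 rose and 0 fell, where 9.08% of all genes fitted rose and 6.93% fell. Groups without overlap and higher in cKO were seen for 2 of the 3, against 18.1% of all symbols. Fewer expressing cells and less RNA per cell cannot be told apart in such bulk samples.

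Rxra, the common partner of the retinoic acid receptors, was the member that rose. The gene lies on chromosome 2 from 27676440 to 27762957 (plus strand), and its row is the 10-exon transcript ENSMUST00000077257. It had 26, 15 and 22 reads in HM-5, HM-13 and HM-16, against 10, 8 and 11 reads in HC-1, HC-8 and HC-10. This corresponds to 0.437, 0.331 and 0.396 FPKM in cKO and 0.169, 0.119 and 0.196 FPKM in WT, and every cKO library was above every WT library. The means were 0.388 ± 0.0534 FPKM in cKO and 0.161 ± 0.039 FPKM in WT (SD, n = 3 each). The voom log2 fold change was 1.28 (SE 0.33, adjusted p = 0.0294). In limma with no filter on low values it missed the threshold (adjusted p = 0.0589), and in the voom fit with 1 library left out it passed only without HM-13 (adjusted p = 0.0291; 0.0512 to 0.11 without the others). From the read totals alone, 63 in cKO and 29 in WT, the ratio was 2.47 with an exact 95% interval of 1.57 to 3.98 that covers counting error only. An exact two-sided permutation test over the libraries gave p = 0.1, the smallest it can give with 3 against 3.

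Rara, the most widely expressed of the retinoic acid receptors in the embryo, did not pass. Its gene lies on chromosome 11 from 98927818 to 98974942 (plus strand), and its row, ENSMUST00000107473, has 8 exons. It had 0.751, 0.876 and 1.04 FPKM in HM-5, HM-13 and HM-16, against 0.587, 0.494 and 0.62 FPKM in HC-1, HC-8 and HC-10, over 20 to 35 reads per library. The groups did not overlap, with means of 0.891 ± 0.147 FPKM in cKO and 0.567 ± 0.0656 FPKM in WT (n = 3 each). The voom log2 fold change was 0.64 (SE 0.26, adjusted p = 0.124), and limma with no filter gave an adjusted p = 0.113. Counting error alone left a ratio between 1.12 and 2.22.

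Rarg, the third receptor with a row, did not pass and its groups overlapped in both of its rows. The gene lies on chromosome 15 from 102234938 to 102257517 (minus strand). The row with more reads, ENSMUST00000063339, starts downstream and had 0.748, 0.427 and 0.906 FPKM in HM-5, HM-13 and HM-16, against 1.08, 0.49 and 0.311 FPKM in HC-1, HC-8 and HC-10. HC-1 was above every cKO library and HC-10 below each of them, and voom gave an adjusted p = 0.705 for a log2 fold change of 0.30 (SE 0.46). The row from the upstream start, ENSMUST00000043172, had 0.688, 0.353 and 0.705 FPKM in HM-5, HM-13 and HM-16, against 0.271, 0.451 and 0.254 FPKM in HC-1, HC-8 and HC-10. HM-13 lay among the WT values there, and the other 2 cKO libraries above all of them. The 2 rows belong to transcripts of the same gene, and how reads of shared exons were divided is not stated. With both rows summed, the log2 fold change on the log2(FPKM + 1) scale was 0.22 (limma, adjusted p = 0.475).

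In the authors' deposited table the 3 receptors carry no FDR, and their p-values were 0.0174 for Rxra, 0.118 for Rara and 0.771 for the Rarg row used here. The log2 fold changes in the authors' deposited table were 0.63, 0.40 and 0.08, smaller than those of the voom fit. That of Crabp2 was 1.15 there, against 1.18 with voom. The other Rarg row had 0.40 there and was not fitted with voom. These values come from different fits, and why they differ was not tested.

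Of 21 listed genes that supply retinoic acid, 9 have a row, 4 were tested with limma and 0 passed. An unadjusted p under 0.05 was found for 1 of the 4, against 34.3% of all genes tested. With voom 0 of 9 passed and 2 had an unadjusted p under 0.05, against 31.3% of all genes fitted. The retinol dehydrogenase Rdh14 had 14.1 ± 0.461 FPKM in cKO and 18.2 ± 3.12 FPKM in WT (adjusted p = 0.0854, n = 3 each), and after quantile normalization it fell (log2 fold change -0.40, adjusted p = 0.0395). Rdh10, which oxidises retinol to retinaldehyde, had 14.6 ± 2.62 FPKM in cKO and 12.8 ± 2.88 FPKM in WT (adjusted p = 0.52), and Aldh1a2, which makes retinoic acid in the meninges, had 1.29 ± 0.321 FPKM in cKO and 1.24 ± 0.409 FPKM in WT (adjusted p = 0.899); this pair was picked with its values known. The median log2 fold change of the 4 was 0.06, against -0.01 over all genes tested. Of 5 further carriers, clearing enzymes and the receptor Rxrg, 0 have a row.

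Among nuclear receptors that pair with RXR or bind direct repeats, Nr2f1 rose. It encodes COUP-TFI, a patterning factor of the cortex that binds retinoid response elements, and stands also in the list of retinoic acid targets. It had 231, 256 and 252 FPKM in HM-5, HM-13 and HM-16, against 134, 132 and 212 FPKM in HC-1, HC-8 and HC-10. The groups did not overlap, but HC-10 was close to the cKO values. The log2 fold change was 0.66 (SE 0.17, adjusted p = 0.0378), and it was 0.88 without HC-10 (adjusted p = 0.00335). Without any 1 of the other 5 libraries the call was lost (highest adjusted p = 0.112). It was also lost with library totals (adjusted p = 0.119), which include the Rn45s reads (29.7% of the reads in HM-13). With no intensity trend it was lost as well (adjusted p = 0.0574). Of the 15 genes of this list, 9 have a row, 7 were tested, 1 rose and 0 fell, against 9.62% and 8.39% of all genes tested. Ppard, the receptor for fatty acids that also pairs with RXR, had 13.0 ± 2.19 FPKM in cKO and 9.41 ± 1.19 FPKM in WT (adjusted p = 0.0804; named after its value was seen). In limma with 1 library left out it rose in 1 of 6 fits, without HM-13 (adjusted p = 0.0227). In such voom fits it rose without HM-13 (adjusted p = 0.0108) and without HC-1 (0.0432). Without any of the others it did not (0.137 to 0.208).

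Vdr, the vitamin D receptor and another RXR partner, was nearly silent in WT. It had 27, 10 and 16 reads in HM-5, HM-13 and HM-16, against 3, 2 and 1 reads in HC-1, HC-8 and HC-10. All cKO libraries were above all WT libraries, and the ratio of read totals was 10.04, with an exact 95% interval of 4.32 to 28.6 for counting error only. It lay under the FPKM filter and met the voom filter only through its 3 cKO libraries, so that leaving out any of them removed it, and no test is given from that fit. In limma with no filter it rose (adjusted p = 0.0233).

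Among cofactors of the receptors 1 gene fell and 0 rose with limma. Of 9 corepressor genes, 6 have a row and 5 were tested; Tbl1x, a subunit of a corepressor complex, fell to 73.3 ± 0.746 FPKM in cKO, against 88.5 ± 7.99 FPKM in WT (adjusted p = 0.0466, n = 3 each; log2 fold change -0.27, SE 0.07). Its call was kept without HC-1 (adjusted p = 0.0272) and lost without any 1 of the other 5 libraries (highest adjusted p = 0.143). It was also lost with no filter (adjusted p = 0.0539), with no intensity trend (0.0886), after quantile normalization (0.121) and with library totals (0.458). Of 8 coactivator genes, all with a row, 4 were tested with limma and 0 passed, with 2 at an unadjusted p under 0.05 (34.3% of all genes tested). The most abundant was the acetyltransferase gene Ep300, at 25.1 ± 2.54 FPKM in cKO and 23.5 ± 0.158 FPKM in WT (adjusted p = 0.535). Med1, a subunit of the Mediator complex, had 14.9 ± 0.484 FPKM in cKO and 17.4 ± 1.06 FPKM in WT, with no overlap (log2 fold change -0.21, adjusted p = 0.11), and it fell after quantile normalization (adjusted p = 0.0334). The other two were named after their values were seen. Ncoa3, a steroid receptor coactivator, had 6.26 ± 0.859 FPKM in cKO and 4.70 ± 0.612 FPKM in WT (adjusted p = 0.114). In voom fits with 1 library left out Ncoa3 rose without HM-13 (adjusted p = 0.0204) and without HC-8 (0.0479). Without any of the others it did not (0.121 to 0.218), and in such limma fits it rose in 0 of 6. The acetyltransferase gene Crebbp had 15.3 ± 0.908 FPKM in cKO and 15.9 ± 1.21 FPKM in WT (adjusted p = 0.693). With voom 1 of 8 rose, where 9.08% of all genes fitted rose. It was Ncoa1, at 0.853 ± 0.141 FPKM in cKO and 0.473 ± 0.124 FPKM in WT (adjusted p = 0.0377). Leaving out a library in turn, 4 of 6 fits lost the call, with an adjusted p of up to 0.135. In limma Ncoa1 missed the threshold with no filter (adjusted p = 0.0763) and with its rows summed (adjusted p = 0.0897). Of 16 listed targets of retinoic acid, 6 have a row and 5 were tested; 1 rose, the Nr2f1 above, and 0 fell, with a median log2 fold change of 0.27. Over all lists, 34 of 68 other retinoid genes have a row, 22 were tested with limma, and 1 rose and 1 fell, against 9.62% and 8.39% of all genes tested.

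**Figure D3:**
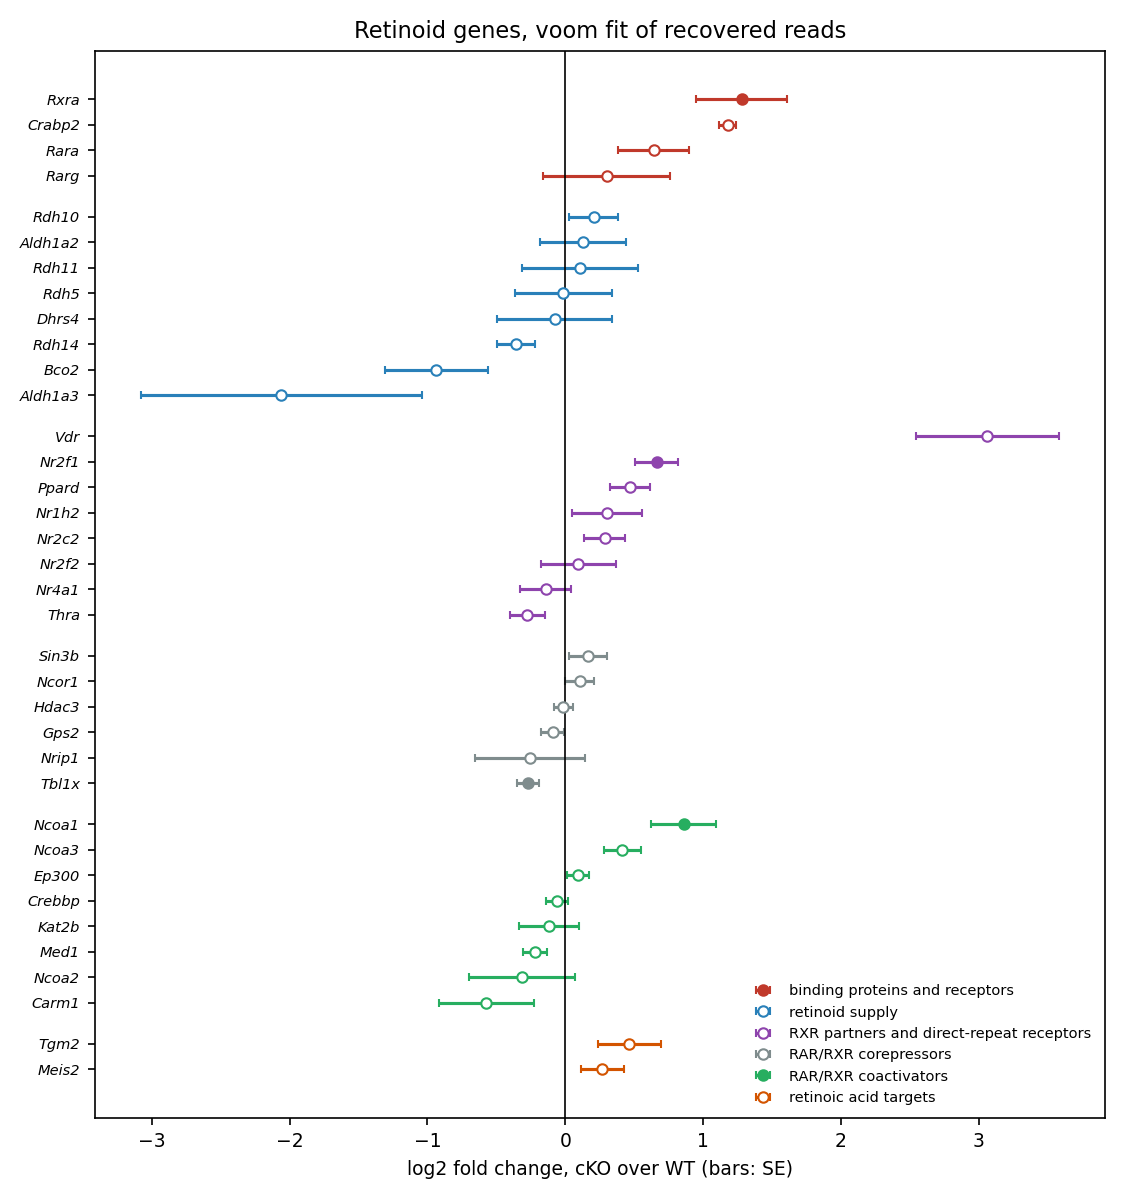
Log2 fold change, cKO over WT, with SE (horizontal) of retinoid genes in the voom fit of recovered reads; filled circles passed the adjusted threshold of 0.05, open circles did not, and Crabp2 and Vdr are open because no test is given for them in this fit. A gene in several lists is drawn once, so Nr2f1, Nr2f2 and Nrip1 appear above the targets; Rxra, Nr2f1 and Ncoa1 are filled on the right and Tbl1x on the left.

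Genes with a profile like that of Crabp2 were sought by the root mean square difference of log2(FPKM + 1), centred on each gene's mean, over the 6 libraries. Of 4468 genes with a mean of at least 10 FPKM, the nearest 5 were Stom (0.0791), Stim1 (0.0871), Tspo (0.0913), Fig4 (0.102) and Gatsl2 (0.117), where the median gene was at 0.624. Their differences between the groups follow from this choice and are given as a description. Stim1, the calcium sensor of the endoplasmic reticulum, averaged 18.5 ± 1.84 FPKM in cKO and 7.79 ± 0.419 FPKM in WT. Tspo, a protein of the outer mitochondrial membrane, averaged 32.7 ± 3.67 FPKM in cKO and 15.01 ± 1.57 FPKM in WT. The receptors lie under 10 FPKM and were not compared.

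Markers of the tissue and of cells that make retinoic acid were set beside these values. The deleted genes checked the labels: Hdac1 was at 51.3 ± 8.46 FPKM in cKO and 201 ± 9.82 FPKM in WT, and Hdac2 at 48.9 ± 12.1 FPKM in cKO and 207 ± 69.2 FPKM in WT (SD, n = 3 each). A second Hdac2 row, of the 8-exon transcript ENSMUST00000105510, was not lower, at 7.46 ± 0.809 FPKM in cKO and 6.62 ± 0.212 FPKM in WT. Cortical markers, 7 of 8 with a row, had a summed FPKM of 669 to 759 in cKO and 663 to 747 in WT, and the lowest was Eomes, at 2.37 ± 0.856 FPKM in cKO and 2.01 ± 0.311 FPKM in WT. The median log2 fold change of the 7 was -0.15 with limma, and only 3 of them were above 0. Of the 7, 2 rose, where 9.62% of all genes tested rose. One was Emx2 (adjusted p = 0.036), whose call was lost in 5 of 6 limma fits with 1 library left out, with library totals (adjusted p = 0.208) and with no intensity trend (adjusted p = 0.056). Markers of meninges and mesenchyme, 13 of 13 tested, gave 0 calls with limma and with voom and 0 with an unadjusted p under 0.05, with summed FPKM of 304 to 477 in cKO and 263 to 540 in WT. Those of cortical hem and choroid plexus summed to 158 to 192 FPKM in cKO and 36.6 to 315 in WT, the lowest being HC-10, the WT library with the highest Nr2f1; the part of tissue makeup in the Nr2f1 values was not tested. Microglial markers moved with the groups: of 7 listed, 5 have a row and reads in every library, and 2 of 5 tested rose, C1qb and Tyrobp (9.62% of all genes tested rose), with summed FPKM of 59.4 to 67.9 in cKO and 41.9 to 51.2 in WT, and their part in the differences of Crabp2 and Rxra was not tested. The call of C1qb was lost in 3 of 6 limma fits with 1 library left out and that of Tyrobp in 1 of 6, and with library totals both were lost (adjusted p = 0.492 for C1qb and 0.186 for Tyrobp). In voom fits with 1 library left out, the call of Tyrobp was lost each time (adjusted p = 0.0505 to 0.112). That of C1qb was kept only without HC-1 (adjusted p = 0.0269) and without HM-13 (adjusted p = 0.0429). Markers of diencephalon to hindbrain (3 of 11 with a row) did not overlap either, with summed FPKM of 6.57 to 7.52 in cKO and 8.34 to 10.1 in WT. Most of these sums was Lhx9, named after its value was seen, at 5.85 ± 0.431 FPKM in cKO and 7.91 ± 0.911 FPKM in WT (adjusted p = 0.0582). The voom log2 fold change had a median of 0.11 over the 3 genes, so the sum does not stand for the whole list. The part of this list in the differences was not tested. Voom tested 3 genes of this list, 3 of the ventral telencephalon, 7 of Cajal-Retzius cells, 8 of cortical hem and choroid plexus, 6 of endothelium, 4 of blood and 3 of epithelium, and 0 passed in it or in limma. Of the eye list (1 of 6 with a row) 0 were tested.

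**Figure D4:**
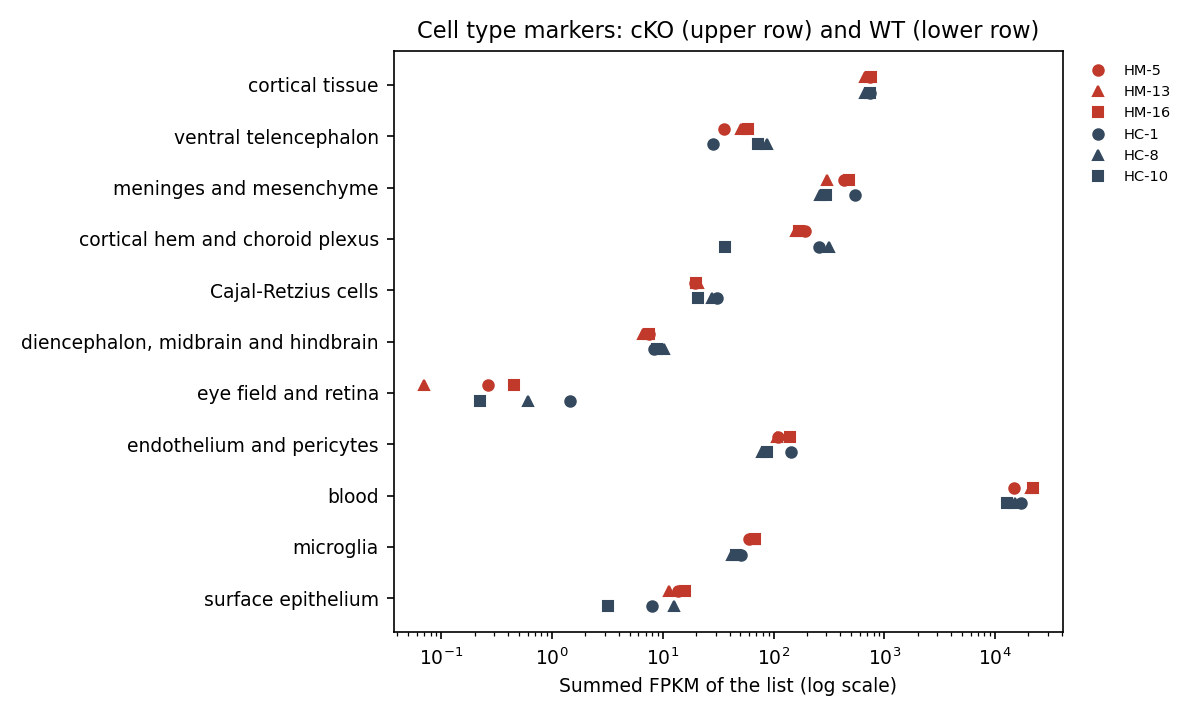
Summed FPKM of each marker list (horizontal, log scale) in each library, cKO in red above and WT in blue below. The meninges list overlaps between groups (304 to 477 in cKO and 263 to 540 in WT), while the microglia list and the low diencephalon, midbrain and hindbrain list do not. The sum of the latter list is mostly Lhx9.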

How the data were processed

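RNA-seq of 3 cKO and 3 WT libraries was used. Per the submitters' processing notes, reads were handled with STAR 2.5.4b, DESeq2 1.22.1, featureCounts 1.6.1, bcl2fastq 1.8.4 and R 3.4.1 on mm10. Per the file headers, the deposited table of 14379 rows holds FPKM per library, the authors' mean normalized count (a signal averaged over libraries), log2 fold change, and a p-value with its FDR. Neither the annotation nor any row filter is stated. Each symbol was represented by its row with the highest mean normalized count.

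Multiplying FPKM by the row's mean normalized count over its mean FPKM, and by a size factor fitted per library (0.804 to 1.19), gave whole reads within 0.001 for 100% of values. These recovered reads total 9712556 to 11922665 per library.

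Genes with at least 1 FPKM in at least 3 libraries were tested with limma 3.58.1 in R 4.3.3 on log2(FPKM + 1), with an intensity trend. The pseudocount makes fold changes of low genes too small. Adjusted p-values (Benjamini-Hochberg over all genes fitted) under 0.05 were called. voom on genes with at least 10 reads in at least 3 libraries was added after the values were seen. DESeq2 was not run here. The fits were tested on simulated counts. The genes set to change there all had higher mean FPKM than the receptors, so recovery of changes at receptor levels was not tested.

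Members and lists were chosen with earlier results of these data known. Named were the members, the deleted genes, the called genes of each retinoid list (with no call, the 2 most abundant tested), the 5 genes most like Crabp2 and, of the markers, the called ones; others are marked in the text. The rule also names the 2 most abundant genes of each marker list, which are given only within the sums. A few genes that the rule names are counted in their lists but not reported here. Intervals cover counting error only.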

Additional observations from a re-analysis of the deposited data

How the results depend on the processing

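The log2 fold change of Crabp2, which was chosen for its direction, was 1.18 with all libraries, 1.14 to 1.21 in limma with 1 library left out and 1.08 to 1.36 over the other settings. Of the other members, 0 were tested and 0 rose with limma; 1 rose (Rxra) with voom on genes with 10 reads, and 0 to 1 in fits with 1 library left out. Of the other retinoid genes 1 rose and 1 fell. The number that rose was 2 with no filter, 3 with voom on genes with 10 reads, and 0 with library totals and with no intensity trend. The 3 include Vdr, which met that filter only through its cKO libraries. The number that fell was 2 after quantile normalization, Rdh14 and Med1 in place of Tbl1x, and 0 with no filter, with library totals and with no intensity trend. With 1 library left out 0 to 4 rose and 0 to 1 fell. All changed genes numbered 1685, against 516 with library totals and 511 to 2038 with 1 library left out; with limma they were 511 without HM-5, 545 without HM-16, 888 without HC-10 and 1103 without HC-1, and with voom 625 without HM-5 and 765 without HM-16, against 1878. Rises made up 53.4% of the calls, against 45.4% (limma, without HC-8) to 67.0% (voom, without HM-5) over the settings and 61.2% with library totals. Those totals include the Rn45s reads, which were 29.7% of the reads in HM-13.

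Small differences that were not called turned direction: the log2 fold change of Ep300 was -0.0082 with library totals, and that of Aldh1a2 -0.012 after quantile normalization. With 1 library left out such values ran from -0.15 to 0.36 for Aldh1a2, -0.11 to 0.0026 for Crebbp and -0.059 to 0.76 for Rarg. With library totals the median log2 fold change over all genes tested was also lower, at -0.085 against -0.0085 in the main fit. The cause of these turns was not tested. Read depth limits the receptors, with 8 to 35 reads per library in the rows used.

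No paired analysis was possible because the labels name no pairs of cKO and WT libraries. The columns also carry none of the replicate numbers in the sample titles.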
